A study of Mus musculus with 22 samples.

Results

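The proteasome genes described here are those whose symbols run from Psma to Psmg followed by a digit, without the immunoproteasome subunits Psmb8, Psmb9 and Psmb10. The pattern took 47 of the 23953 gene symbols in the RNA table, each represented by the transcript with the highest mean RPKM (read counts scaled to transcript length and library size). The pattern itself uses symbols only. The set is wider than the constitutive subunits its name announces. Beside the 20S core and the 19S regulatory particle it holds activators, an inhibitor, assembly chaperones, the Psme2-like copy Psme2b, and Psmc3ip, a meiotic recombination factor that is no proteasome subunit. Without Psmc3ip there are 46 genes. The tissue-restricted forms Psma8 (testis) and Psmb11 (thymus) were listed at 0 in every BV2 library and stayed below 1 RPKM in primary cells, which left 45 genes for testing.

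The proteasome is the main protease of the cytosol and nucleus, and it degrades proteins that carry ubiquitin chains. Its barrel-shaped 20S core is built of alpha rings that gate the entrance and beta rings, in which Psmb5, Psmb6 and Psmb7 cut peptide bonds. The 19S particle binds ubiquitin, removes it, and unfolds the substrate with a ring of ATPases. In myeloid cells, interferon replaces the standard catalytic subunits with Psmb8, Psmb9 and Psmb10 and adds the activator of Psme1 and Psme2. The transcription factor Nfe2l1 raises proteasome genes together when proteasome activity falls short, through the antioxidant response element in their promoters. Long polyglutamine stretches, as in mutant huntingtin, are poor proteasome substrates.

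BV2 cells, an immortalised mouse microglial line, carried Nmu (the N-terminal end of mutant human huntingtin, 128 glutamines), Nwt (the same end of the normal protein, 15 glutamines) or the empty lentiviral vector pCDH, in which a CMV promoter drives the insert. All BV2 libraries thus came from transduced cells, and Nwt and pCDH served as controls. Each construct had 2 RNA libraries, one labelled 24 h and one called the second time here, because its time is 48 h in the labels and 6 h in the header of the table. The primary cells were Q175 mice (HTT Q175/175, 175 glutamines in both alleles) and Q7 mice (HTT Q7/7, 7 glutamines), with 1 library each of adult brain microglia sorted as CD11b+ CD45low and of bone marrow derived macrophages (BMDM) grown with M-CSF. Ages and numbers of animals are not given in the sources used here. Chromatin was immunoprecipitated from the 3 BV2 constructs, 1 library each, for the histone mark H3K4me2 and the factors PU.1, C/EBPβ and C/EBPα. The labels leave unsaid whether any libraries are separate transductions or animals, so the spread behind each p-value may be technical.

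The steps between the lowest RPKM values gave 10.8 to 14.0 M reads in the BV2 libraries and 28.8 to 47.8 M in those of primary cells. The least-covered library held 8 reads of Psmc3ip, and the median over the genes of that lowest count was 244 reads. The 7 microglia markers, Tmem119 and P2ry12 among them, summed to 3130 (Q175) and 3710 RPKM (Q7) in microglia, and to between 25.5 and 118 RPKM in BV2 cells, where 2 or 3 of the 7 were at 0. The 7 myeloid markers were above 0 in every library. Granulocyte markers came to 571 RPKM in Q175 microglia and 1790 RPKM in Q7 microglia, and to 215 RPKM in Q175 BMDM and 428 RPKM in Q7 BMDM. Reads of Psma5, Psmb5, Psmb6 and Psmb7 may be shared with pseudogenes in the RefSeq list, and those of Psme2 with Psme2b, so these levels are uncertain.

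Levels, which RPKM makes comparable between genes by length, differed widely within the complex. In BV2 cells Psma2 was the lowest 20S subunit in all 6 libraries (14.6 to 32.0 RPKM), and Psmb6 or Psmb4 the highest (101 to 145 RPKM for Psmb6 at 24 h). The 14 core subunits summed to 919.4 RPKM in Nmu, 854.8 in Nwt and 868.8 in pCDH at the second time, and to 723.3, 577.2 and 614.2 RPKM at 24 h. The 17 subunits of the 19S particle summed to 610.4, 603.4 and 605.1 RPKM at the second time, in the same order of constructs, and to 521.2, 382.9 and 392.3 RPKM at 24 h. Both sums were therefore above both controls in Nmu cells at 24 h and nearly level between constructs at the second time. Most of the core's excess at 24 h lay in the 3 catalytic subunits, which summed to 301.1 RPKM in Nmu, 186.1 in Nwt and 200.4 in pCDH. In the same order, the 4 structural beta subunits summed to 181.6, 166.9 and 182.1 RPKM, and the 7 alpha subunits to 240.6, 224.1 and 231.6 RPKM. In microglia the core summed to 160.8 RPKM (Q175) and 212.8 RPKM (Q7), against 679.6 RPKM (Q175) and 504.4 RPKM (Q7) in BMDM. Assembly chaperones were the scarce part of the set, with medians of 6.43 to 11.9 RPKM in BV2 libraries.

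**Figure D1:**
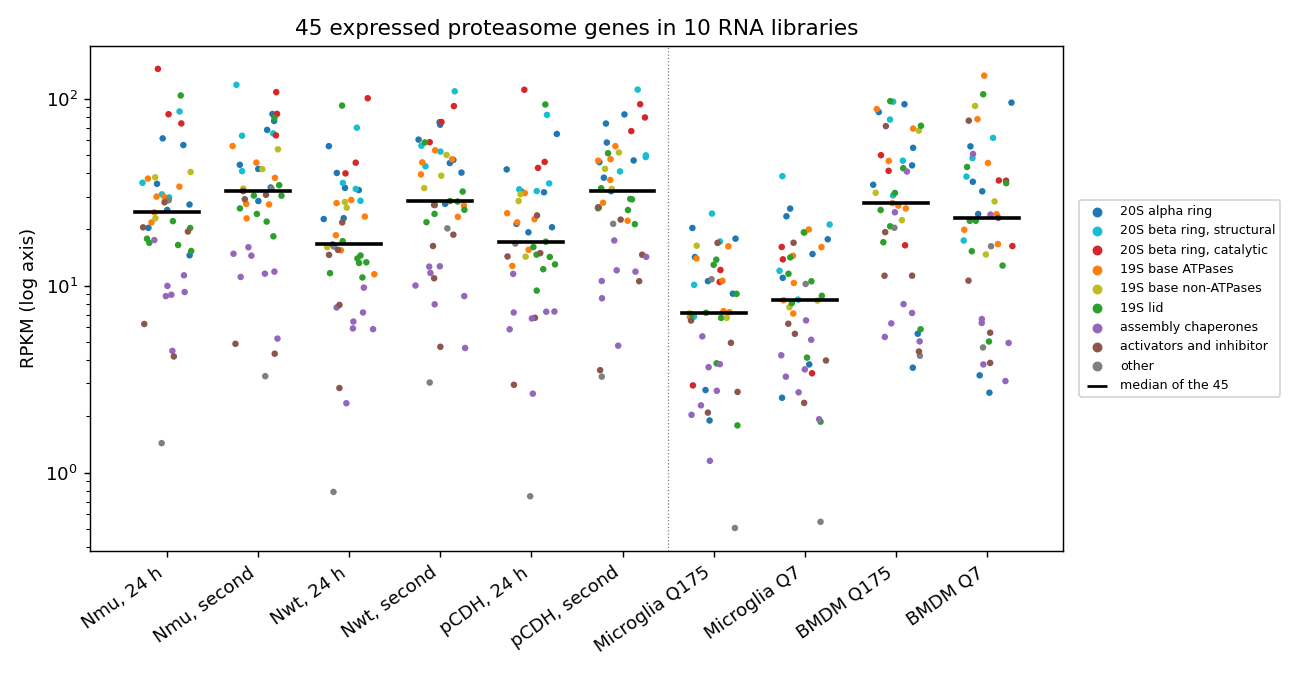
RPKM (log axis) of the 45 expressed genes in each of the 10 RNA libraries, coloured by role, with 1 point per gene and the median as a bar. The microglia libraries lie lowest, and at 24 h the median of the Nmu library lies above those of Nwt and pCDH.

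The first question was whether the mutant fragment shifts proteasome genes in BV2 cells. Fitted over both times with limma on log2(RPKM + 1), a scale that understates changes of low genes, no proteasome gene passed an adjusted p of 0.05 between Nmu and the 2 controls together (0 of 45, where 0.348% of the 10350 genes tested did in either direction). Unadjusted, 8 of the 45 and 2094 of all genes had a p under 0.05. The proteasome genes still lay mostly above zero: 37 of 45 log2 differences were positive, with a median of 0.26 against -0.003 for all genes. The highest were Psmg3 (0.84 ± 0.24 SE, adjusted p = 0.176), Psme2b (0.70 ± 0.14, adjusted p = 0.117) and Psme2 (0.67 ± 0.16, adjusted p = 0.145). The lowest were Psme4 (-0.67 ± 0.26, adjusted p = 0.243), Psmc6 (-0.30 ± 0.36) and Psma1 (-0.24 ± 0.14).

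Single controls gave the same count. Against pCDH, Nmu had 0 of 45 genes called (0.087% of all genes) and 5 with an unadjusted p under 0.05, with a median difference of 0.23. Psmg3 (0.77 ± 0.28), Psme2 (0.71 ± 0.19) and Psme2b (0.67 ± 0.16) were highest there, and Psme4 (-0.61 ± 0.29), Psma2 (-0.28 ± 0.17) and Psmc6 (-0.23 ± 0.41) lowest. Against Nwt, it had 0 of 45 (0.0676% of all genes) and 3 unadjusted, with a median of 0.26. Psmg3 (0.92 ± 0.28), Psme2b (0.73 ± 0.16) and Psme2 (0.63 ± 0.19) were again the highest 3, and Psme4 (-0.73 ± 0.29), Psmc6 (-0.37 ± 0.41) and Psma1 (-0.25 ± 0.16) the lowest. Between the controls themselves, Nwt and pCDH, 0 of 45 and 0.0% of all genes were called, 0 of 45 and 66 of all genes had an unadjusted p under 0.05, and the median was -0.04. Psmf1 (0.15), Psmc6 (0.14) and Psme4 (0.12) were the highest there and Psmg4 (-0.33), Psma2 (-0.21) and Psmg2 (-0.21) the lowest. Nmu differed unevenly between the times, and the fit counts such a difference as error.

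Each time was therefore compared separately, in a fit chosen after these values were seen. It takes the spread from the pair of controls at each time (2 residual degrees of freedom) and assumes that the lone Nmu library varies like them. At 24 h, 21 of the 45 genes were higher in Nmu cells and 0 were lower, where 21.1% of all genes were higher and 18.4% lower. The median difference was 0.41 for proteasome genes and 0.05 for all genes tested. Fewer proteasome genes were called higher whenever a control library was left out, while their median stayed between 0.39 and 0.43. Under several other settings, quantile normalization among them, a proteasome gene was called lower. The Nmu library stood above both control libraries for 34 of 45 genes (45.4% of all genes) at 24 h and for 27 of 45 (38.9%) at the second time. The 20S core and the 19S particle differed in their share: 4 of 14 core subunits and 10 of 17 particle subunits were called, a contrast that was not tested.

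The catalytic subunits rose at 24 h, all 3 of them. Psmb5, the chymotrypsin-like protease (mm9 chr14:55232957-55236832, minus strand), had 82.7 RPKM in Nmu cells, against 39.9 in Nwt and 42.7 in pCDH cells. Its log2 difference was 0.99 ± 0.13 (SE, 1 Nmu and 2 control libraries), with an adjusted p of 0.00518. The control libraries lay close together, and Nmu lay apart from both. Psmb7, the trypsin-like protease, had 73.8 RPKM in Nmu cells, against 45.5 in Nwt and 45.9 in pCDH cells, a difference of 0.68 ± 0.10 (adjusted p = 0.00766). Psmb6, the caspase-like protease, had 145 RPKM in Nmu cells, against 101 in Nwt and 112 in pCDH cells, a difference of 0.44 ± 0.11 (adjusted p = 0.033). Of the 4 structural beta subunits 0 were called, with differences between -0.24 (Psmb2) and 0.23 (Psmb3).

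The alpha ring, which gates the core, gave a single call. Psma6 had 61.4 RPKM in Nmu cells, against 33.4 in Nwt and 31.9 in pCDH cells (0.89 ± 0.10, adjusted p = 0.00375). The other 6 alpha subunits did not pass, and 5 of them had negative differences, down to -0.32 ± 0.10 for Psma1 (adjusted p = 0.0534). Psma1 had 25.4 RPKM in Nmu cells, against 32.5 in Nwt and 31.6 in pCDH cells. Stoichiometric partners of one ring thus lay on both sides of zero.

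In the base of the 19S particle, 2 of 6 ATPases rose. Psmc2 had 29.8 RPKM in Nmu cells, against 15.5 in Nwt and 15.6 in pCDH cells (0.90 ± 0.10, adjusted p = 0.00342), and Psmc4 differed by 0.80 ± 0.11 (adjusted p = 0.00666). The other ATPases had differences between 0.28 and 0.42. Of the non-ATPase base subunits, the scaffold Psmd1 (0.57 ± 0.11, adjusted p = 0.0172) and the ubiquitin receptor Psmd4 (0.56 ± 0.12, adjusted p = 0.0184) rose, while Psmd2 missed the threshold (0.36 ± 0.11, adjusted p = 0.0554). In the lid 6 of 8 rose. Psmd14, the deubiquitinase that strips ubiquitin from substrates (mm9 chr2:61549751-61638433, plus strand), had 28.7 RPKM in Nmu cells, against 17.3 in Nwt and 14.7 in pCDH cells (0.81 ± 0.13, adjusted p = 0.00912). Psmd11, Psmd12, Psmd7, Psmd13 and Psmd6 followed with differences between 0.41 and 0.54. Psmd8 and Psmd3 did not pass.

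Among the assembly chaperones 3 of 7 rose. Psmg3, which helps to build the alpha ring, showed the highest difference of the 45 genes. It had 17.6 RPKM in Nmu cells, against 7.19 in Nwt and 6.69 in pCDH cells (1.23 ± 0.18, adjusted p = 0.00756). The base chaperones Psmd9 (0.65 ± 0.11) and Psmd5 (0.62 ± 0.11) were the others. Of the activators and the inhibitor 2 of 5 rose: Psme3, the nuclear activator, with 27.95 RPKM in Nmu cells against 15.6 in Nwt and 14.9 in pCDH cells (0.83 ± 0.10, adjusted p = 0.00442), and Psme2 (0.48 ± 0.11, adjusted p = 0.0261). Its partner Psme1 had a difference of -0.21 ± 0.15 (adjusted p = 0.289). The 2 remaining symbols, Psme2b (0.76 ± 0.10) and Psmc3ip (0.46 ± 0.10, from 1.44 RPKM in Nmu and under 0.8 RPKM in each control), were also called.

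**Figure D2:**
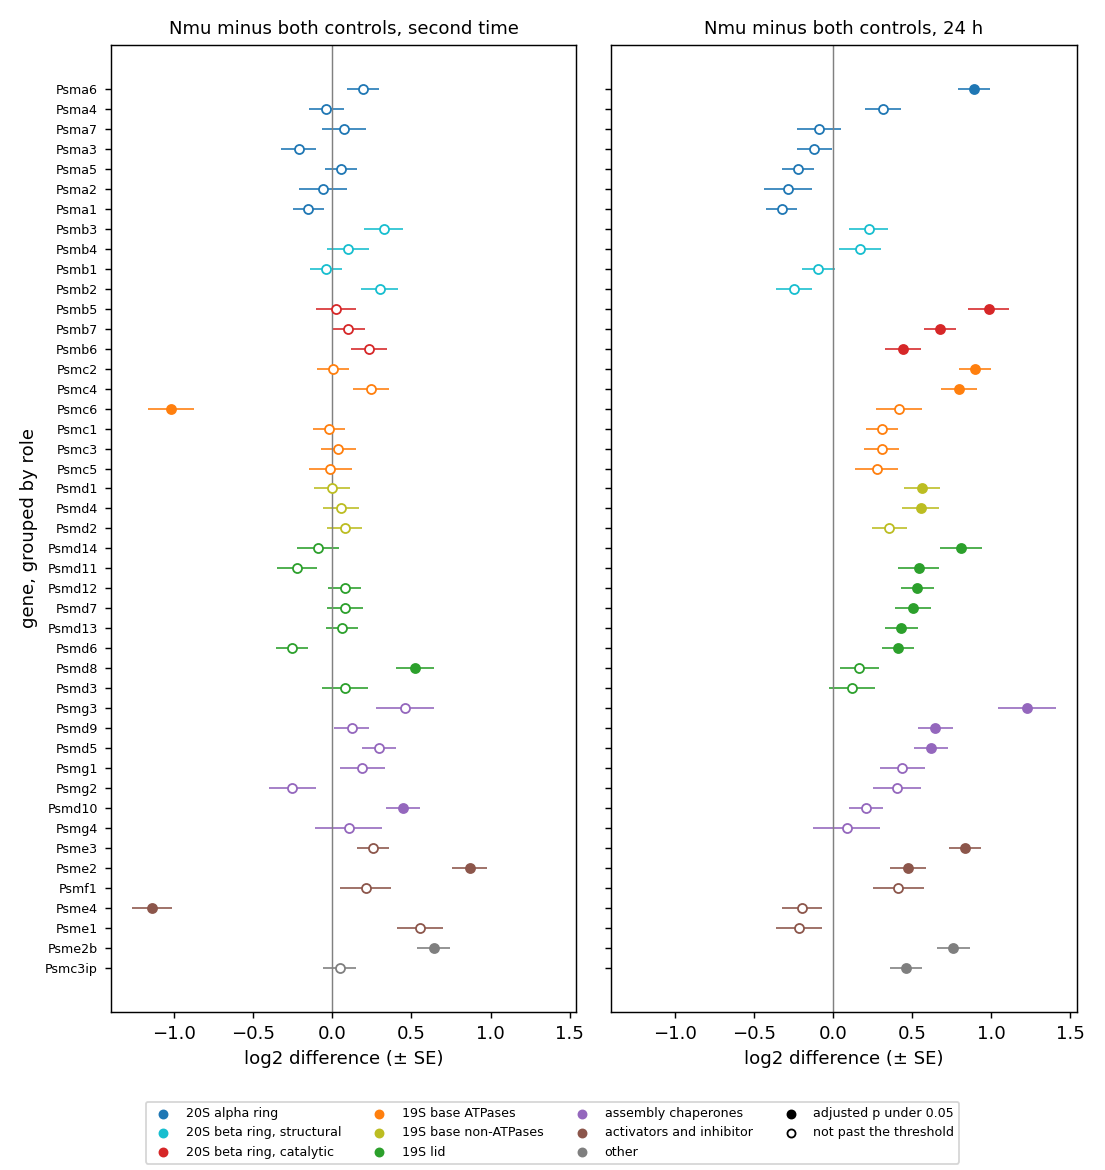
Log2 difference (± SE) of Nmu minus both controls at the second time (left) and at 24 h (right) for the 45 genes, grouped by role; filled points passed an adjusted p of 0.05. At 24 h 21 genes are filled on the right of zero, and at the second time 4 on the right and 2 on the left.

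Of the 25 pathway partners tested, 7 were higher at 24 h and 1 lower, a share not far from that of all genes higher in this comparison (21.1%). Nfe2l1 had 36.9 RPKM in Nmu cells, against 10.6 in Nwt and 9.80 in pCDH cells (1.76 ± 0.11, adjusted p = 0.00115). Adrm1, the ubiquitin receptor of the base, differed by 1.09 ± 0.12, and the shuttle receptor Rad23b by 1.07 ± 0.10. Pomp, which matures the core, was lower, with 33.7 RPKM in Nmu cells, against 46.3 in Nwt and 48.1 in pCDH cells (-0.47 ± 0.11, adjusted p = 0.0244). Of the immunoproteasome genes Psmb8 was higher (0.36 ± 0.10) and Psmb10 lower (-0.65 ± 0.17). Other programmes moved in the same library. Of 8 cell cycle genes 5 were higher (list median 0.91), and Lcn2 of the granulocyte list had 219 RPKM in Nmu cells against at most 0.18 RPKM in the controls, while 4 of the 8 genes on that list were at 0. Their part in the proteasome result was not tested.

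At the second time 4 of 45 genes were higher in Nmu cells and 2 lower, where 8.98% of all genes were higher and 14.6% lower. The median difference was 0.08, against -0.03 for all genes. Psme2, which forms the interferon-inducible activator with Psme1, had 29.0 RPKM in Nmu cells, against 16.3 in Nwt and 14.7 in pCDH cells (0.87 ± 0.11, adjusted p = 0.0102). Psme2b (0.64 ± 0.10, adjusted p = 0.0149), the lid subunit Psmd8 (0.52 ± 0.12, adjusted p = 0.037) and the base chaperone Psmd10 (0.45 ± 0.11, adjusted p = 0.0407) were the other calls. Psme1 missed the threshold (0.55 ± 0.15, adjusted p = 0.0515). Psme2 and Psme2b, whose reads may be shared, were the 2 genes called higher at both times, that is 2 of 21 and 2 of 4.

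The 2 genes that fell at the second time were Psme4 and Psmc6. Psme4, an activator linked to acetylated histones and DNA repair (mm9 chr11:30671775-30780361, plus strand), had 4.33 RPKM in Nmu cells, against 10.96 in Nwt and 10.6 in pCDH cells (-1.14 ± 0.13, adjusted p = 0.00793). The ATPase Psmc6 (mm9 chr14:45949499-45968746, plus strand) had 22.9 RPKM in Nmu cells, against 47.5 RPKM in Nwt and in pCDH cells (-1.02 ± 0.14, adjusted p = 0.0114). The controls lay close together for both genes, and Nmu lay well below them. The catalytic subunits were level: Psmb5 differed by 0.02 ± 0.13, Psmb6 by 0.23 ± 0.11 and Psmb7 by 0.10 ± 0.10, and none passed. Beside these, 2 of 3 immunoproteasome genes (Psmb8, 0.71 ± 0.10, and Psmb9, 1.34 ± 0.21) and 4 of 7 antigen processing genes were higher in Nmu cells, and 2 of 8 cell cycle genes were lower. Of the 25 partners 2 were higher, Nfe2l1 (0.62 ± 0.11) among them, and 4 were lower: the ubiquitin ligase Ube3a (-1.05), the proteasome deubiquitinase Uchl5 (-0.82), Ngly1 (-0.67), which removes sugars from Nfe2l1 before it becomes active, and AI314180 (-0.52). Without the Nwt or the pCDH library of the second time, no proteasome gene was called in either direction, and without either control library of 24 h 2 were higher and 2 lower. With no filter on low values 2 were higher and 1 lower.

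The difference between the times was then tested as an interaction, also chosen after the values were seen. The Nmu effect was lower at the second time for 10 of 45 genes and higher for 1, where 16.2% of all genes were lower and 11.9% higher. The median was -0.33, against -0.09 for all genes. Psmc6 (-1.44 ± 0.20, adjusted p = 0.0128), Psmb5 (-0.96 ± 0.18, adjusted p = 0.0206) and Psme4 (-0.95 ± 0.18, adjusted p = 0.0207) were the lowest. Psme1 (0.77 ± 0.21, adjusted p = 0.048) was the single gene with a higher effect at the second time. Psmb7 had -0.58 ± 0.14 (adjusted p = 0.0407), Psmb6 -0.21 ± 0.16 and Psme2 0.39 ± 0.16, neither of them called. These calls rest on few libraries: 5 genes were lower without the 24 h Nwt library, 3 without that of pCDH, and 0 without either control library of the second time. With equal library medians the split was 7 lower and 2 higher, and with no filter on low values 5 lower and 0 higher.

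**Figure D3:**
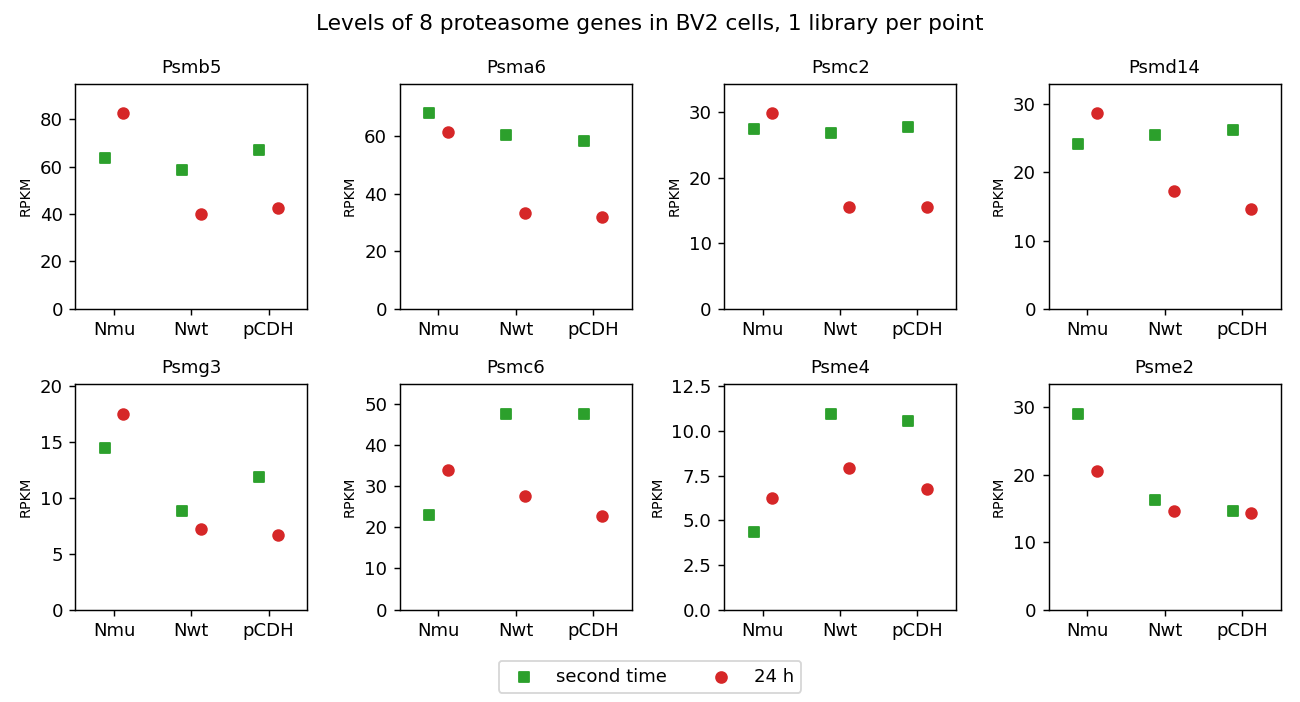
RPKM of 8 genes in the 6 BV2 libraries, by construct, with squares for the second time and circles for 24 h, 1 library per point and axes from 0. At 24 h Nmu lies above both controls for Psmb5, Psma6, Psmc2, Psmd14 and Psmg3, and at the second time it lies below both for Psmc6 and Psme4.

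Libraries of the second time and of 24 h were then compared. The times coincide with the library sets and their order is not settled, so that higher here means higher in the libraries called the second time. Over the 3 constructs together, 0 of 45 genes and 0.0% of all genes passed between the second time and 24 h by limma, although 43 of 45 differences were positive (median 0.59 against 0.10 for all genes) and 32 of 45 proteasome genes and 2812 of all genes had an unadjusted p under 0.05. Psmc3ip (1.09 ± 0.16), Psma4 (0.92 ± 0.15) and Psma5 (0.91 ± 0.14) led, each with an adjusted p of 0.062, and Psmd8 (-0.63 ± 0.15) was the lowest. Without either Nmu library 39 of 45 genes were called higher and 1 lower.

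In the controls alone 38 of 45 genes were higher at the second time and 1 was lower, where 32.1% of all genes were higher and 14.8% lower. The median was 0.74, against 0.14 for all genes, which leaves 0.61. All 7 alpha subunits, all 4 structural beta subunits and all 6 ATPases were higher, as were 7 of 8 lid subunits. Psmd1 was at 33.3 (Nwt) and 33.0 RPKM (pCDH) at the second time, and at 16.1 (Nwt) and 14.3 RPKM (pCDH) at 24 h, a difference of 1.08 ± 0.09 (adjusted p = 0.00187). Psmc3ip (1.23 ± 0.08) and Psmd7 (1.04 ± 0.09) were the other leaders, and the smallest positive differences called were those of Psmb1 (0.35 ± 0.08) and Psme2b (0.32 ± 0.08). Psmd8 went the other way, with 58.4 (Nwt) and 51.2 RPKM (pCDH) at the second time, and 92.0 (Nwt) and 93.2 RPKM (pCDH) at 24 h (-0.75 ± 0.10, adjusted p = 0.00449). Psmb6 (-0.20 ± 0.09), Psme1 (-0.14 ± 0.12) and Psme2 (0.09 ± 0.09) did not pass, and Psme2 turned to -0.07 with equal library medians and to -0.14 after quantile normalization. All 8 cell cycle genes were higher in the same contrast, with a median of 1.95. Their part in it was not tested.

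Nmu cells had a single library at each time, so that calls between them rest on the spread of the controls. There 20 of 45 genes were higher at the second time and 0 lower, where 19.1% of all genes were higher and 12.4% lower, with a median of 0.46 against 0.08. Of these, 18 were also called in the controls, which is 18 of 20 and 18 of 38. Psmb2 had 65.3 RPKM at the second time and 29.7 RPKM at 24 h (1.11 ± 0.13, adjusted p = 0.00894). Psma5 had 76.1 and 35.1 RPKM at those times (1.10 ± 0.12) and Psma2 28.4 and 14.6 RPKM (0.92 ± 0.17). The smallest differences called were those of Psmd1 (0.51 ± 0.13), Psmd2 (0.49 ± 0.13) and Psme2 (0.48 ± 0.13). None of the catalytic subunits passed in Nmu cells (Psmb5 -0.37 ± 0.15, Psmb6 -0.41 ± 0.13, Psmb7 0.17 ± 0.12), whereas Psmb5 (0.59 ± 0.10) and Psmb7 (0.74 ± 0.08) were higher in the controls. Without the Nwt or the pCDH library of the second time the count was 7, and after quantile normalization it was 7 higher and 3 lower, and with no filter on low values 9 higher.

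No searched element was common to all promoters of the set. RefSeq windows of 300 bases on GRCm38.p6, from 250 before to 50 after the start, were matched for 39 of the 47 genes (42 windows). The core of the antioxidant response element, TGACNNNGC on either strand, was in 6 of the 42 windows (14.3%), against 12.4% of all 32851 windows and 14.5% of the 9557 windows of genes tested in BV2 cells. It was in Psmb5, Psmb6, Psmc6, Psmd9, Psmd12 and Psme4. CCAAT was in 14 windows (33.3%, against 37.4% of all). The ETS core CCGGAAG was in 16 windows of 15 genes (38.1%), against 8.86% of all windows and 19.8% of those of tested genes. Member windows had a median GC content of 58.2%, against 52.7% over all. These letters describe the windows and say nothing of binding. The following sequences, along the gene's strand, are those of the catalytic subunits with the element beside their starts (first base of the match at -47 and -9) and of the 2 genes that fell in Nmu cells at the second time, which hold it on the opposite strand (at -227 and -7). Capitals mark the match.
Psmb5, chr14:54617946-54618245, minus strand: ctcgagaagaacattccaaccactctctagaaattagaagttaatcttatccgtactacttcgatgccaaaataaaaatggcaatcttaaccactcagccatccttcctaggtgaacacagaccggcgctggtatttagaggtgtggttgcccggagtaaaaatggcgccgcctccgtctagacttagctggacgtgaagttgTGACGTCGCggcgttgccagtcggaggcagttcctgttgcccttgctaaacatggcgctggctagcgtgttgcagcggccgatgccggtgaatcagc
Psmb6, chr11:70525107-70525406, plus strand: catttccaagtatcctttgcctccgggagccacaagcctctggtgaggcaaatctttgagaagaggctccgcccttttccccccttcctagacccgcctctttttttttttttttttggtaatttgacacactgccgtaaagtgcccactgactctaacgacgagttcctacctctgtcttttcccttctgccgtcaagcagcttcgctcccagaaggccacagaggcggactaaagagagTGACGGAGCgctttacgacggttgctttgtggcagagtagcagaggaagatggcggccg
Psmc6, chr14:45329574-45329873, plus strand: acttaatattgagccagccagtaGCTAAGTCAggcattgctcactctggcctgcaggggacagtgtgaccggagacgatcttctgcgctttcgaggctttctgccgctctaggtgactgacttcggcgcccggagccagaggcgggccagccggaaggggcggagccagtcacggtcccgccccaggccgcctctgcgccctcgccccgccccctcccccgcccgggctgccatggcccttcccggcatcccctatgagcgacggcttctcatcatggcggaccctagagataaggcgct
Psme4, chr11:30771525-30771824, plus strand: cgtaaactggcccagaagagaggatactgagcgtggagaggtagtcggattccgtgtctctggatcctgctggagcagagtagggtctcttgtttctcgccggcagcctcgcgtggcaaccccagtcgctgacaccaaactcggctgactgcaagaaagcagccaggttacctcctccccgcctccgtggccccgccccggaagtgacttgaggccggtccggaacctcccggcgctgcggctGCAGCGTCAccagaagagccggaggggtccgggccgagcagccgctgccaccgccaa

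Windows with the ETS core are those of Psmc2, one of the ATPases higher in Nmu cells at 24 h, for which RefSeq gave 2 starts. PU.1 had a peak over the mm9 start of Psmc2 with every construct, but the peaks were not placed on these windows, which are of another build. Of the other genes with a PU.1 peak in every construct, Psma5 and Psmb4 had no ETS core in their windows, and Psmd4 had 1. Whether PU.1 binds this core was not tested. Capitals mark the core, which lies on the minus strand at -84 in the first window and at -24 in the second.
Psmc2, chr5:21785025-21785324, plus strand: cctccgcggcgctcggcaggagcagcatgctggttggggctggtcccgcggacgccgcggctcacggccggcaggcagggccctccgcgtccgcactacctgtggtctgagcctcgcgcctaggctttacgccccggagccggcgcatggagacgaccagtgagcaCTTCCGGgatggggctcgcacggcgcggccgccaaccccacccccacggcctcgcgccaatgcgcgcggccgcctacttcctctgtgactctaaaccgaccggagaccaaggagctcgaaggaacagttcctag
Psmc2, chr5:21786497-21786796, plus strand: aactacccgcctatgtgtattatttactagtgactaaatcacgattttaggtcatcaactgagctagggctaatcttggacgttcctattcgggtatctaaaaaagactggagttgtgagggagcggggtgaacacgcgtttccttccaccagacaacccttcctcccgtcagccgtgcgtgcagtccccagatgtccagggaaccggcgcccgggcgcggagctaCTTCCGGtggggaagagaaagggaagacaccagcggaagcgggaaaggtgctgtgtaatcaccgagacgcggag

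Nearly all of these genes, like most genes tested, carried a mark of active chromatin at their start, and a smaller number had a peak of a myeloid factor there. Within 1000 bp of the mm9 start, an H3K4me2 region, a mark of active promoters and enhancers, was present for 44 of 45 genes in Nmu, 43 in Nwt and 44 in pCDH cells, where 89.9%, 89.6% and 90.0% of the 10350 genes had one. It was present in all 3 constructs for 43 genes and in none for Psme2b. Psmb5 had one in Nmu and pCDH cells, while the nearest in Nwt cells lay 1252 bp from the start, just outside the window. Within 2000 bp, 44 of 45 genes had one in each construct. PU.1, the myeloid lineage factor, had a peak at 11 genes in Nmu, 8 in Nwt and 15 in pCDH cells, against 33.6%, 26.4% and 39.4% of all genes, and at 4 genes in all 3 (Psma5, Psmb4, Psmc2 and Psmd4). C/EBPα had 5, 8 and 7 genes in that order of constructs, against 8.74%, 23.4% and 9.55% of all genes. C/EBPβ had 17, 20 and 13 (37.8%, 44.4% and 28.9%), against 41.1%, 54.7% and 30.8%. With every construct the shares for C/EBPβ and for PU.1 (24.4%, 17.8% and 33.3%) were below those of all genes. The share for C/EBPα (11.1%, 17.8% and 15.6%) was below that of all genes only in Nwt cells. None of these contrasts was tested. Of the 6 genes with the highest differences at 24 h, Psmg3 and Psme3 had C/EBPβ peaks over their starts with every construct, and Psmb5, Psmc2, Psma6 and Psmd14 had none within 1000 bp. With 1 library per antibody and construct, called separately, no difference between constructs was tested. Depth moved with the counts for C/EBPα, with 14.71 M tags in Nmu, 24.09 M in Nwt and 16.33 M in pCDH cells; its part was not tested.

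The second question concerned the endogenous mutant allele. Over both primary cell types, 0 of 45 genes were called between Q175 and Q7 cells by limma (0.337% of all genes in either direction), 0 of 45 and 283 of all genes had an unadjusted p under 0.05, and the median was 0.02. The highest were Psmd8 (0.30 ± 0.26), Psmb2 (0.27 ± 0.26) and Psme2 (0.24 ± 0.26), and the lowest Psmc3 (-0.44 ± 0.26), Psmd1 (-0.32 ± 0.26) and Psmd14 (-0.31 ± 0.26). Taken singly, the cell types pointed apart. In microglia 41 of 45 genes were lower in the Q175 library, with a median log2 difference of -0.27, while 64.4% of all genes were lower (median -0.07). In BMDM 35 of 45 were higher in Q175, with a median of 0.28, while 69.1% of all genes were higher (median 0.16). For 32 genes the sign was negative in microglia and positive in BMDM, and for 1 gene the reverse, where 46.6% of all genes had the first pattern. The direction was thus shared by most genes in each cell type, while the medians of the proteasome genes lay further from zero. Whether they differ from all genes was not tested. Psmb4 had 24.3 RPKM in Q175 and 38.5 RPKM in Q7 microglia, but 77.4 RPKM in Q175 and 48.2 RPKM in Q7 BMDM. Psmc3 had 16.3 RPKM in Q175 and 20.0 RPKM in Q7 microglia, and 88.1 RPKM in Q175 and 133 RPKM in Q7 BMDM, lower in both. With 1 library per genotype and cell type these differences have no replicate check, and depth and granulocyte markers moved with genotype. Depth was 28.8 M reads in Q175 and 34.3 M in Q7 microglia, and 47.8 M in Q175 and 30.2 M in Q7 BMDM. Their part was not tested.

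**Figure D4:**
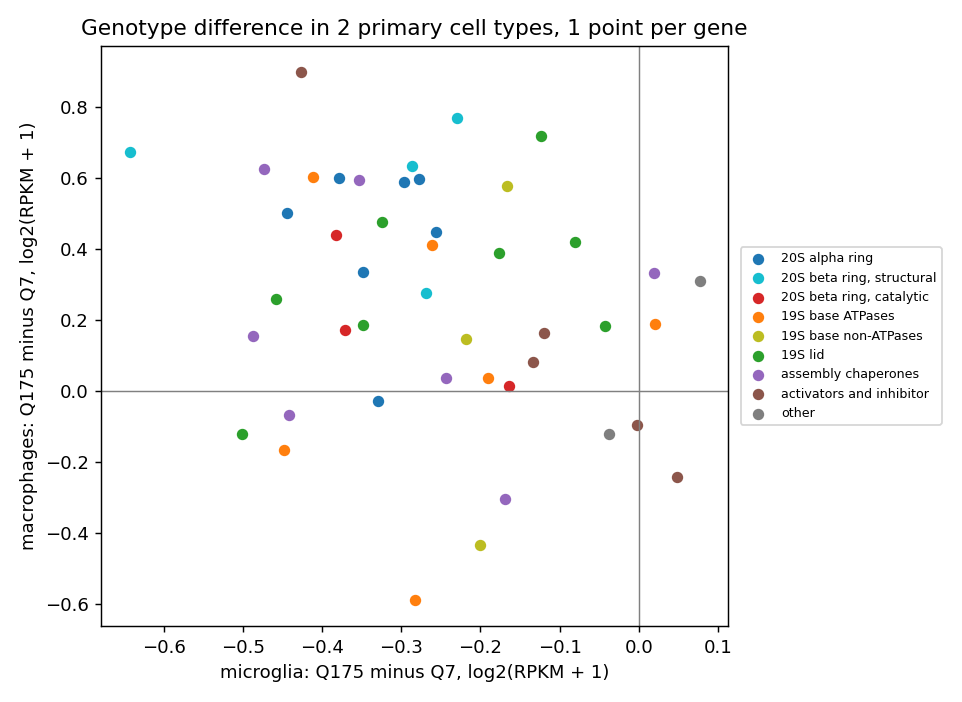
Difference between the Q175 and the Q7 library in log2(RPKM + 1), in microglia (horizontal) and in BMDM (vertical), 1 point per gene, coloured by role. Of 45 points, 32 lie left of zero and above zero, that is lower in Q175 microglia and higher in Q175 BMDM.

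Cell type gave larger differences. In microglia 41 of 45 genes were lower than in BMDM and 0 were higher, where 49.2% of all genes were lower and 18.2% higher. The median was -1.51, against -0.53 for all genes, so that proteasome genes lay 0.97 further down. The fit has 1 residual degree of freedom and gave every gene the same SE, so its small p-values rest on one spread. In bulk RNA, fewer cells of a kind and less RNA per cell cannot be told apart. Psmd14 had 7.17 RPKM (Q175) and 10.6 RPKM (Q7) in microglia, against 97.1 RPKM (Q175) and 106 RPKM (Q7) in BMDM (-3.40 ± 0.26, adjusted p = 1.9e-36). Psmg4 (-3.23 ± 0.26) and Psmd1 (-3.19 ± 0.26) came next. Of the genes called, the smallest differences were those of Psmf1 (-0.67 ± 0.26), Psmc4 (-0.70 ± 0.26) and Psmd4 (-0.72 ± 0.26). Those of Psmc4 and Psmd4 turned to 0.23 and 0.28 after quantile normalization. Psma3 (0.04), Psmg1, Psmg2 and Psmg3 did not pass. Psmb5 (-2.06), Psmb6 (-1.54), Psmb7 (-1.61), Psme1 (-2.06) and Psme2 (-1.07) were all lower. Under quantile normalization 26 genes were lower, and with no filter on low values 23. Cell cycle genes, which BMDM grown in culture expressed strongly, were lower in microglia for 8 of 8 (median -3.22), and granulocyte markers were higher in each genotype; their part was not tested.

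BV2 control cells stood above microglia. Of the 45 genes 39 were higher and 0 lower, where 41.5% of all genes were higher and 30.3% lower, with a median of 1.32 against 0.23. Psma5 had 40.1 and 72.7 RPKM in Nwt and 41.9 and 73.7 RPKM in pCDH cells (24 h first), against 1.90 RPKM (Q175) and 2.52 RPKM (Q7) in microglia (4.13 ± 0.31, adjusted p = 8.79e-06). Psmb5 (3.64 ± 0.22) and Psma3 (2.84 ± 0.29) followed, and Psmb6 had 2.74 ± 0.18, Psmb7 2.21 ± 0.27 and Psme2 1.89 ± 0.24. The smallest called differences were those of Psme2b (0.76 ± 0.16), Psmf1 (0.46 ± 0.18) and Psme1 (0.33 ± 0.13, adjusted p = 0.0437), the last of which turned to -0.15 after quantile normalization. Without the Q175 microglia library 26 genes were higher.

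Against BMDM, BV2 control cells had 11 genes higher and 12 lower, where 23.7% of all genes were higher and 42.0% lower. The median was -0.11, against -0.27 for all genes, and it turned to 0.11 without the Q175 BMDM library and to 0.04 without the 24 h Nwt library. With equal library medians the split was 18 higher and 10 lower, and after quantile normalization 22 and 9 (medians 0.18 and 0.45), so the balance depends on the scaling. Psma5 (3.39 ± 0.31), Psma3 (2.88 ± 0.29) and Psmb5 (1.58 ± 0.22) were highest, and Psmb6 (1.19 ± 0.18) and Psme2 (0.82 ± 0.24) were also called. Psmd14 (-2.26 ± 0.26), Psmg4 (-1.77 ± 0.22) and Psmd1 (-1.76 ± 0.37) were lowest, and Psme1 differed by -1.72 ± 0.13. Without the Q7 BMDM library 4 genes were higher and 8 lower. A line against primary cells also differs in culture, depth and genetic background, which cannot be told apart here.

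The catalytic subunits have immune counterparts, and the share of the immune form parted primary cells from BV2 cells. Psmb8 made up 86.7% (Q175) and 86.1% (Q7) of Psmb8 plus Psmb5 in microglia and 82.2% (Q175) and 76.4% (Q7) in BMDM, against 27.4% to 41.9% in BV2 cells. Psmb9 made up 44.8% to 49.2% of Psmb9 plus Psmb6 in primary cells, against 2.34% to 6.70% in BV2 cells. Psmb10 made up 57.9% (Q175) and 54.7% (Q7) of Psmb10 plus Psmb7 in microglia and 34.6% (Q175) and 31.3% (Q7) in BMDM, against 8.0% to 20.9% in BV2 cells. The groups did not overlap for any pair. Among single genes such a gap was common. All BV2 control libraries lay above both microglia libraries for 46.5% of all genes and below them for 34.0%. Against BMDM these shares were 26.5% and 45.7%. The share over other pairs of genes was not computed. The mean log2 ratio of immune to standard form was 2.30 ± 0.46 in primary cells and -0.96 ± 0.35 in BV2 cells for Psmb8 and Psmb5 (SD, n = 4 and 6). It was -0.20 ± 0.12 and -4.86 ± 0.59 for Psmb9 and Psmb6, and -0.33 ± 0.81 and -2.73 ± 0.56 for Psmb10 and Psmb7. Each pair gave an exact 2-sided permutation p of 0.00952, the smallest these numbers allow, and 0.00952 after Benjamini-Hochberg adjustment over the 3 pairs. The test treats libraries as exchangeable replicates. However, all 6 BV2 libraries are of the same line, and the 4 primary libraries mix microglia and BMDM of both genotypes. The p-values therefore measure no spread between lines or between animals of one cell type. Within BV2 cells the Nmu library had the lowest share of Psmb8 at 24 h (27.4%, against 37.4% in Nwt and 36.4% in pCDH) and the highest at the second time (41.9%, against 32.0% in Nwt and 29.3% in pCDH).

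**Figure D5:**
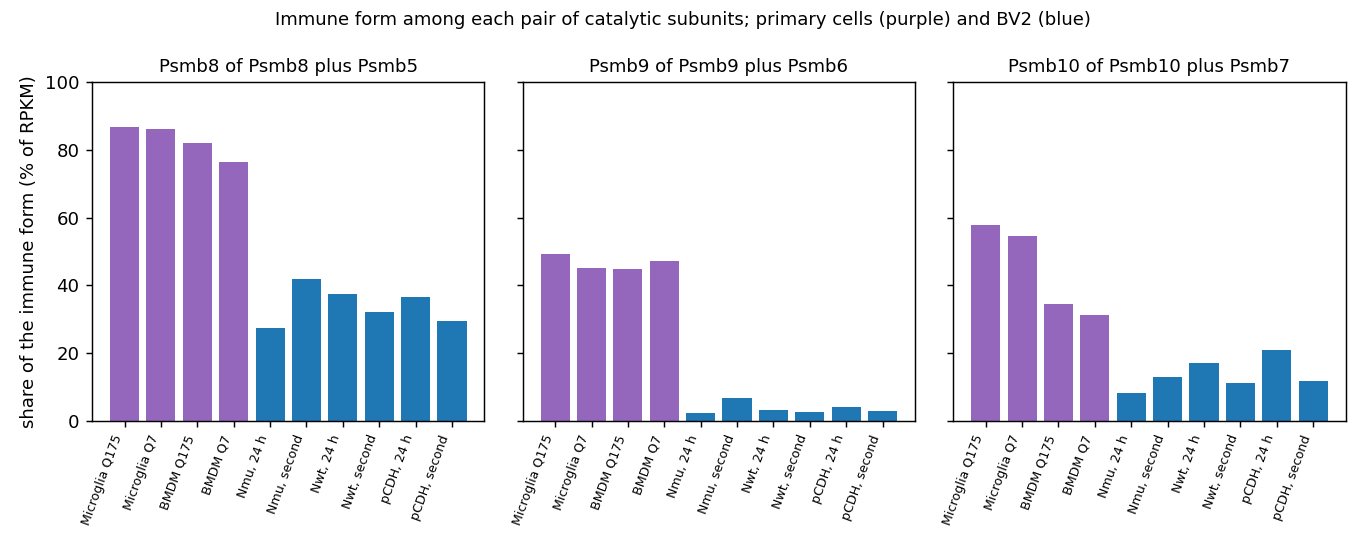
Share of the immune form in the RPKM of each pair of catalytic subunits, in percent, with 1 bar per RNA library, primary cells in purple and BV2 cells in blue. All 4 primary libraries lie above all 6 BV2 libraries for each pair.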

How the data were processed

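Poly(A) RNA (10 libraries) and chromatin immunoprecipitates (12 libraries) were measured. The RNA table deposited by the authors gives RPKM per RefSeq transcript on mm9, and STAR 2.0.3e, edgeR and HOMER are the tools in the submitters' processing notes. How reads shared by near-identical genes were counted is not stated in these sources. The deposited peak lists (mm9, Bowtie and HOMER in the notes) were called per library, per the file headers, against an input named for another macrophage source, and every peak carries a score of 1 as the authors deposited it, so only presence was used. In the lowest values RPKM times length gave whole reads for 98.0% to 100% of values within 0.1 reads, from which depth was taken.

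Genes and lists were chosen with earlier results of these data known. Testing took the genes that reached 1 RPKM in 2 or more fitted libraries and used limma 3.58.1 (R 4.3.3) on log2(RPKM + 1), with Benjamini-Hochberg adjustment over all genes at 0.05; construct and time, genotype and cell type, or cell type alone were the terms. Genes named were mostly all those past the threshold where 6 or fewer passed. Otherwise they were mostly the 3 highest and 3 lowest called (or tested, with none called). Psmb5, Psmb6, Psmb7, Psme1 and Psme2 were added in some comparisons and left out of others. In the paragraphs on 24 h further genes were named by role, after their values were seen. Peaks were matched to starts within 1000 bp, with 1 bp of overlap. Alternatives covered the pseudocount, the filter, the trend, the scaling, the transcript, the time term, left-out libraries and the promoter window. A few partner and marker genes are not reported here.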

Additional observations from a re-analysis of the deposited data

Results flagged for a closer look

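The effect of Nmu differed between the second time and 24 h for 11 of the 45 proteasome genes (limma interaction test, adjusted p under 0.05). The comparison was chosen after the values were seen. A lower effect was called for 22.2% of proteasome genes and 16.2% of all genes, and a higher effect for 2.22% and 11.9%. With both directions together, the share of proteasome genes was not above that of all genes. On the log2 scale, second time minus 24 h, the ATPase Psmc6 had -1.44, from an Nmu difference of -1.02 at the second time and 0.42 at 24 h. Psmb5, the chymotrypsin-like subunit, had -0.96 (0.02 and 0.99), the activator Psme4 -0.95 (-1.14 and -0.20) and the lid deubiquitinase Psmd14 -0.90 (-0.09 and 0.81). Psmc2 also had -0.90 (0.00 and 0.90). Psmd11 had -0.77, Psma6 -0.70, Psmd6 -0.67, Psmb7 -0.58 and Psme3 -0.58. Psme1 had 0.77 (0.55 and -0.21). Without the Nwt or the pCDH library of the second time none of these passed.

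The genotype differences of the primary cells had opposite medians over the 45 genes, -0.27 for Q175 minus Q7 in microglia and 0.28 in BMDM, where those of all genes were -0.07 and 0.16 and 46.6% of all genes were lower in Q175 microglia and higher in Q175 BMDM. With 1 library each, the difference between the cell types was not tested.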

How the results depend on the processing

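Labels give the constructs replicate numbers that are the times, and the time term was the replicate block of the BV2 fit: without it 0 of 45 genes were called in each comparison of constructs, so it changed no call there. The fits by time, and the splits made with them, were chosen after seeing the data. Of 45 genes, other settings gave the following counts. With a pseudocount of 5, 14 were higher at the second time over all constructs. At 24 h 1 gene was lower in Nmu (pseudocount 5, no filter, filter of 5 RPKM, trend, equal medians, quantile normalization). At the second time 2 were higher (pseudocount 0.1, no filter) and 1 lower (no filter). The interaction had 0 higher (pseudocount 0.1, no filter) or 2 (pseudocount 5, filter of 5 RPKM, trend, equal medians), and 5 lower (no filter). The controls had 2 lower over time (equal medians). Nmu had 3 lower over time (pseudocount 5, filter of 5 RPKM, quantile) or 2 (trend), and 9 (no filter) or 7 (quantile) higher. Microglia against BMDM had 23 (no filter) or 26 (quantile) lower and 1 higher (equal medians). BV2 controls had 1 lower than in microglia (no filter), and 18 (equal medians) or 22 (quantile) higher than in BMDM. Within 500 bp, C/EBPα peaks were at 3 genes in Nmu and 5 in Nwt. Leaving out 1 library at a time gave 0 to 21 higher and 0 to 2 lower for Nmu against both controls, 0 to 16 and 0 to 2 against pCDH, 0 to 20 and 0 to 2 against Nwt, and 0 to 39 and 0 to 1 for the second time against 24 h; the 21, 16 and 20 arose without the second-time Nmu library, in which the time of that construct no longer adds to the error. By time the ranges were 14 to 16 higher at 24 h, 0 to 2 higher and 0 to 2 lower at the second time, 0 higher and 0 to 5 lower for the interaction, 28 to 33 higher over time in controls, and 7 to 17 higher and 0 to 1 lower in Nmu. BV2 controls had 26 to 40 higher than in microglia, and 4 to 13 higher and 8 to 13 lower than in BMDM. Signs turned for Psme1 (Nmu against pCDH -0.03 with quantile; second time against 24 h -0.01 with equal medians and -0.08 with quantile; Q175 against Q7 0.0 with quantile; BV2 controls against microglia -0.15 with quantile), Psmb5 (-0.15) and Psmb7 (-0.07) in Nmu at the second time and Psmb7 over time in Nmu (-0.03), all with quantile, Psme2 over time in controls (-0.07 with equal medians, -0.14 with quantile), Psmb6 in Q175 against Q7 (-0.04 with equal medians), and Psmd4 (0.28) and Psmc4 (0.23) in microglia against BMDM with quantile. With libraries left out, Psmc6 ranged over -1.02 to 0.42 (Nmu against both controls), -0.95 to 0.49 (pCDH) and -1.09 to 0.35 (Nwt), Psme1 over -0.21 to 0.55, -0.31 to 0.46 and -0.12 to 0.65 in the same comparisons, and Psmb5 over -0.05 to 0.91 (pCDH) and -0.07 to 0.12 (second time). Between Nwt and pCDH they ranged over -0.42 to 0.13 for Psmb5, -0.19 to 0.01 for Psmb6, -0.22 to 0.12 for Psmb7, -0.33 to 0.60 for Psmc6, -0.43 to 0.06 for Psme1, -0.06 to 0.23 for Psme2, -0.17 to 0.42 for Psme4 and -0.05 to 0.34 for Psmf1. Over time Psme1 ranged from -0.14 to 0.28. The cause of these changes was not tested. Of the 4 primary libraries none could be left out with a test, since 0 residual degrees of freedom remain. The lowest read count of the set was 8, for Psmc3ip in the 24 h pCDH library.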
